A study of Mus musculus with 9 samples.

Results

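The 10 genes described here encode the enzymes that cut and trim prohormones (Pcsk1, Pcsk2 and Cpe), the small proteins that inhibit or chaperone the cutting enzymes (Pcsk1n and Scg5), the granins of the secretory granule (Chga, Chgb, Scg2 and Scg3) and a protein of the granule membrane (Ptprn). They were picked by gene symbol and not by a measured value, and are 10 of the 56748 genes in the deposited count table. Each symbol matched 1 row, and all 10 were among the 17276 genes with enough counts to be tested. RNA was sequenced from primary pancreatic islets of wild-type mice of the strain given as C57bl/6, in 3 groups with 3 libraries each. Particle islets received IL-1beta, TNF-alpha and IL-6 for 48 hours together with PD-G-MSNPs, the polydopamine-coated mesoporous silica nanoparticles under study. Inflamed islets received the same cytokines for 48 hours without particles, and control islets were left untreated. The particles were therefore measured only in islets that also received cytokines. The sex and age of the mice, the dose of each agent and whether the replicates came from separate mice were not stated in the labels used here, so the p-values reflect how far these samples varied, a part of which may be technical.

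Peptide hormones are made as long precursors that are sorted into granules as they leave the Golgi. In the acidifying granule the prohormone convertases encoded by Pcsk1 and Pcsk2 cut after pairs of basic amino acids, and carboxypeptidase E, encoded by Cpe, then removes the basic residues left at the cut end. In beta cells these steps turn proinsulin into insulin, and in alpha cells the enzyme encoded by Pcsk2 releases glucagon. Granins are acidic proteins that condense in the forming granule and help to build its dense core, and they are themselves cut into peptides by the same enzymes.

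The promoters are shown because the cAMP response element, a binding sequence of the CREB and ATF family of transcription factors, is known from the control regions of several convertase and granin genes. RefSeq windows of 300 bases, from 250 before to 50 after a start site on GRCm38.p6, were found for 9 of the 10 genes. They numbered 10 windows, since Ptprn had 2 and Cpe had none in the table used. Both strands were searched for the full element TGACGTCA, for its shorter core TGACG and for TATAAA, the letters of a TATA box. A full element holds the core on each strand. The full element stood in the windows of Pcsk1 (first base at -78 from the start site), Chgb (-72) and Scg2 (-68), which is 3 of 10 windows, against 1.79% of the 32851 promoters in the table. The core stood in 8 of the 10 windows and in 20.8% of all promoters. TATAAA stood in 1 of the 10, that of Chga, and in 13.6% of all promoters. The match in Chga begins at +6, after the start site, and no window of a member held TATAAA before it, against 12.4% of all promoters. Only these exact letters were searched, so variants of a TATA box were not counted. The 150 bases before the start site are printed for the 3 genes with a full element and for Chga, the most abundant member in control islets, whose core begins at -44. They lie on GRCm38.p6 at chr13:75089707-75089856 on the plus strand for Pcsk1, chr2:132781492-132781641 on the plus strand for Chgb, chr1:79440027-79440176 on the minus strand for Scg2 and chr12:102554791-102554940 on the plus strand for Chga. Capitals mark the full elements and cores.
Pcsk1: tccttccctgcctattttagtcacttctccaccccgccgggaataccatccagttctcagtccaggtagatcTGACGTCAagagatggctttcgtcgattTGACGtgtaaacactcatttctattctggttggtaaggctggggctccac
Chgb: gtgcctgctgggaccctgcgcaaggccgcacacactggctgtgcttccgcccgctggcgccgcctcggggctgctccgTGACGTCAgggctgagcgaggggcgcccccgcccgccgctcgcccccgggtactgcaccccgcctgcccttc
Scg2: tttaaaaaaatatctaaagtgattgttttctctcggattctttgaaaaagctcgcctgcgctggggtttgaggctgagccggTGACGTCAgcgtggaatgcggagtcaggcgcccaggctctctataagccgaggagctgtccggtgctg
Chga: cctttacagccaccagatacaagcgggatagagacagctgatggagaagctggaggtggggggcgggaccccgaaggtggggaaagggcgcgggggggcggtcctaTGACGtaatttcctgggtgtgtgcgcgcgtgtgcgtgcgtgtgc
The match of letters says nothing of whether a factor was bound. Among the 3 genes with the full element, Pcsk1 and Scg2 were called lower in inflamed islets and Chgb was not.

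Library totals ran from 17832949 to 55865759 counts. The tissue was checked by its markers. All 14 beta cell markers were tested, and their summed level was 87969 to 241193 CPM in particle islets, 123775 to 229116 CPM in inflamed islets and 344269 to 361938 CPM in control islets. CPM are counts per 1000000 of the library total after scaling by TMM factors. The 10 alpha cell markers summed to 139 to 7986 CPM in particle islets, 145 to 522 CPM in inflamed islets and 7500 to 27570 CPM in control islets. Of these markers 2, Pou3f4 among them, were at 0 in all inflamed libraries. The 14 macrophage markers summed to 414 to 642 CPM in particle islets, 1227 to 1342 CPM in inflamed islets and 335 to 424 CPM in control islets. In inflamed against control islets 19% of all genes tested were called lower and 20.7% higher. Between these groups 13 of 14 tested beta cell markers and 6 of 9 tested alpha cell markers were lower. For alpha cells it was 3 of 9 without inflamed replicate 3 or without a filter on low counts. In the same comparison 1 of 9 alpha cell markers and 12 of 13 tested macrophage markers were higher. Their part in the results on the 10 genes was not tested, and in RNA of whole islets fewer cells of a type and less RNA per cell cannot be told apart. Particle replicate 2 stood apart within its group, with 2.15% of its counts from the 10 genes, against 1.16% and 1.12% in particle replicates 1 and 3. It was thus singled out by the level of the same 10 genes. Larger falls and added calls without it follow at least in part from that choice and are not separate evidence. Fold changes and ratios of particle islets are also given without particle replicate 2 where a call changed or the value moved by over 1.5 times.

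The 10 genes together made up 1.16, 2.15 and 1.12% of the counts of the particle libraries, 1.41, 1.22 and 1.17% of the inflamed libraries and 2.62, 2.99 and 2.75% of the control libraries. The 3 control libraries were highest and did not overlap with either treated group. Mitochondrially encoded genes were also highest in the control libraries, but they were lowest in inflamed replicate 1, the inflamed library with most counts from the 10 genes. They made up 1.13, 1.54 and 1.17% of the counts of the particle libraries, 0.751, 1.14 and 1.08% of the inflamed libraries and 1.71, 1.95 and 1.70% of the control libraries. Their part in the results was not tested. Per unit of transcript length, in the deposited FPKM, control islets held most Chga, at 4370 ± 278 FPKM (SD, n = 3, as for all levels that follow). Pcsk1n at 1580 ± 337 FPKM and Scg2 at 1489 ± 76.8 FPKM came next with overlapping ranges, and Cpe at 1161 ± 196 FPKM lay below Scg2 without overlap. Chgb, Scg5 and Pcsk2 followed with overlapping neighbours at 572 ± 76.1, 522 ± 34.9 and 492 ± 53.7 FPKM, and then Ptprn and Scg3, also overlapping, at 352 ± 58.2 and 318 ± 31.5 FPKM. Pcsk1 was the lowest at 50.6 ± 16.8 FPKM. Chga ranked 7th or 8th among all genes of each control library, and Pcsk1 between rank 475 and rank 1256.

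In inflamed islets the order of levels per length was another one. Cpe was first at 1303 ± 110 FPKM and overlapped with Chga at 975 ± 327 FPKM. Pcsk1n, Scg5 and Chgb were indistinct from each other at 497 ± 189, 486 ± 74.2 and 378 ± 89.97 FPKM. Scg2, Scg3 and Ptprn lay together below them at 237 ± 36.8, 236 ± 19.0 and 215 ± 18.2 FPKM, with Pcsk2 at 122 ± 7.76 FPKM and Pcsk1 at 9.74 ± 1.90 FPKM each clear of its neighbour. In particle islets the 9 upper genes, from Chga at 1477 ± 1381 FPKM to Pcsk2 at 177 ± 101 FPKM, each overlapped with the next, and Pcsk1 stood below them at 20.6 ± 11.4 FPKM. Scg2 ranked 15th to 19th in control libraries but 120th to 220th in inflamed libraries, whereas Cpe was among the 28 highest genes of all 9 libraries.

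Transcripts of both convertases and of some of the granins were lower in islets exposed to cytokines. In inflamed against control islets 5 of the 10 genes fell (Pcsk1, Pcsk2, Pcsk1n, Chga and Scg2) and 0 rose, with edgeR's quasi-likelihood test at an adjusted p under 0.05. Of all genes tested in that comparison 39.6% were called, 19% lower and 20.7% higher. The same 5 genes had an unadjusted p under 0.05, as 49.1% of all genes did. With DESeq2 the count was 7 lower and 0 higher, where 22.7% of all genes were lower and 22.1% higher. The median log2 fold change of the 10 genes was -1.14, against 0.05 over all genes tested. The CPM ranges of 8 genes lay wholly below the control range, as those of 28.5% of all genes did. In particle against control islets 4 genes fell (Pcsk1, Pcsk2, Scg2 and Scg3) and 0 rose, where 17.3% of all genes were called, 5.92% lower and 11.4% higher. The 4 became 1 without control replicate 2 or 3 or particle replicate 1 or 3, 2 without control replicate 1 or inflamed replicate 1, and 7 without particle replicate 2. The lower genes over all genes moved too, from 1022 to 488, 328 and 228 without control replicates 1, 2 and 3. They numbered 224, 2121 and 307 without particle replicates 1, 2 and 3. In that comparison 6 genes had an unadjusted p under 0.05, all lower, as 33.5% of all genes did in either direction. DESeq2 called 5 of the 10 lower, beside 11.3% of all genes lower and 13.6% higher. The median log2 fold change was -1.0 against 0.05, and 7 genes lay wholly below the control range, as 20.6% of all genes did. Both comparisons share the control libraries. Without TMM factors the median of all genes moved up by 0.18 for inflamed against control and by 0.27 for particle against control, and the counts of the 10 genes were then 5 and 3 lower. Of all genes 597 were then lower in particle against control, in place of 1022. In inflamed against control 38.1% of all calls were then lower, in place of 47.9%. In particle against inflamed islets none of the 10 genes and 0% of all genes were called by edgeR's quasi-likelihood test. In that comparison 1 of the 10 genes had an unadjusted p under 0.05, as 15.1% of all genes did, and DESeq2 called 0 of the 10 genes, beside 2.82% of all genes higher and 1.72% lower.

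**Figure D1:**
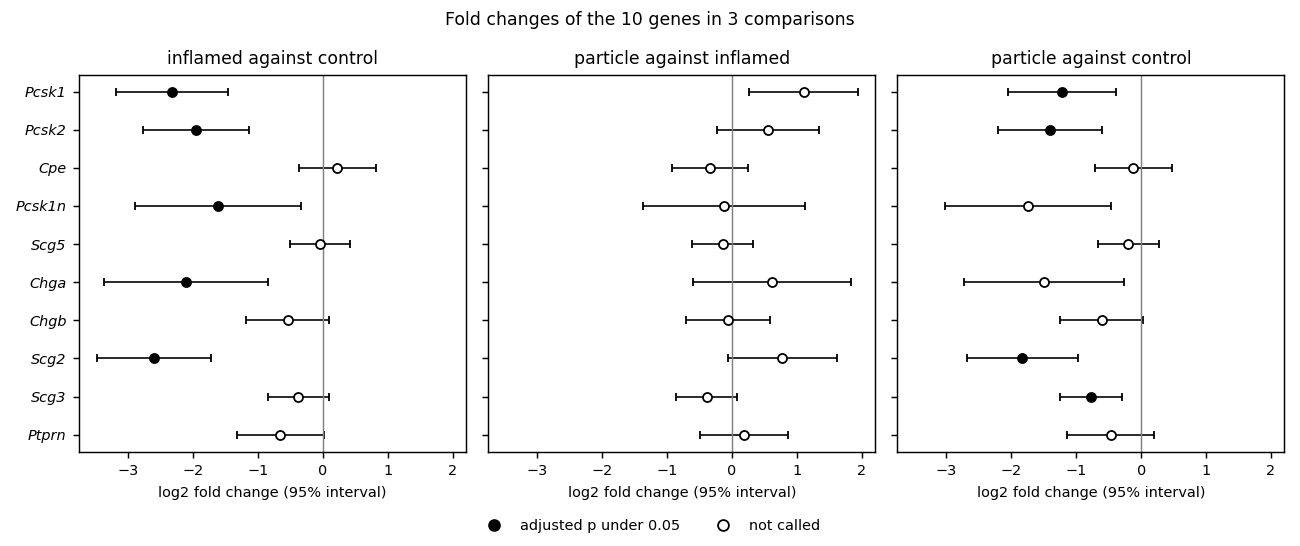
Log2 fold changes of the 10 genes with 95% intervals from edgeR, for inflamed against control, particle against inflamed and also particle against control islets (3 libraries a group), with filled points for an adjusted p under 0.05. The filled points are the 5 genes lower in inflamed islets and the 4 lower in particle islets, both against control, and none is filled in the middle panel.

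Pcsk1, the convertase that makes most of the cuts in proinsulin in the mouse (ENSMUSG00000021587, GRCm39 chr13:75237945-75282980, plus strand), was at 111, 190.3 and 58.1 CPM in the particle libraries. The inflamed libraries held 46.3, 66.8 and 54.5 CPM, and the control libraries 207, 379 and 254 CPM. All 6 cytokine-treated libraries were below all controls, and particle replicate 3 lay inside the inflamed range while the other particle libraries lay above it. Pcsk1 averaged 55.9 ± 10.3 CPM in inflamed and 279.8 ± 88.7 CPM in control islets (SD, n = 3 each), which was 5.01-fold lower. The log2 fold change was -2.32 (95% interval -3.19 to -1.46, edgeR adjusted p = 0.00126), and the call held in all 20 alternative analyses. At 119.9 ± 66.5 CPM in particle islets it was also lower than in controls (log2 fold change -1.22, -2.06 to -0.39, adjusted p = 0.0479 with edgeR). The call held in 9 of 20 alternatives. It was not made when 1 of the 3 control libraries was left out (adjusted p = 0.0532 to 0.153), 1 of the 3 inflamed libraries (0.0542 to 0.0716), particle replicate 1 (0.132) or particle replicate 3 (0.132). It was also lost with library totals in place of TMM factors (0.0665), without a filter on low counts (0.0632) and with only the compared libraries in the fit (0.0721). The log2 fold change against control was -1.77 without particle replicate 2. Against inflamed islets, Pcsk1 in particle islets had a log2 fold change of 1.10 (0.27 to 1.93) with an edgeR adjusted p of 0.215. Without particle replicate 3 the value was 1.44 and the adjusted p was 0.0351, and without particle replicate 2 the value was 0.60.

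Pcsk2, the second convertase of the islet and the one that releases glucagon in alpha cells (ENSMUSG00000027419, GRCm39 chr2:143388076-143658205, plus strand), was at 1138, 2406 and 821 CPM in the particle libraries. It was at 1021, 915 and 1037 CPM in the inflamed libraries and at 3426, 4103 and 4015 CPM in the control libraries. The inflamed libraries were close to each other and far below the controls, and particle replicates 1 and 2 stood between the groups. Mean levels were 991 ± 66.3 CPM in inflamed and 3848 ± 368 CPM in control islets, 3.88-fold lower (log2 fold change -1.96, -2.77 to -1.14, edgeR adjusted p = 0.00224), and the call held in all 20 alternatives. At 1455 ± 838 CPM, particle islets were lower than controls by edgeR's test too (log2 fold change -1.40, -2.20 to -0.60, adjusted p = 0.0254). The adjusted p of that comparison was over the threshold without particle replicate 1 (0.0910) or 3 (0.0838) without control replicate 2 (0.0595) or 3 (0.0674), and with only the compared libraries (0.0539). Without particle replicate 2 the log2 fold change was -2.01. For particle against inflamed islets Pcsk2 had a log2 fold change of 0.55 (-0.23 to 1.34, adjusted p = 0.508 with edgeR), and of -0.01 without particle replicate 2. The antisense gene Pcsk2os1 overlaps Pcsk2 and had a count of 0.607% of that of Pcsk2. No other gene overlapping a member reached that share, and whether reads were counted by strand was not stated in the labels.

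Cpe, which encodes the carboxypeptidase that trims the cut ends (ENSMUSG00000037852, GRCm39 chr8:65045576-65146088, minus strand), had no call in any comparison. It was at 2307, 2429 and 3538 CPM in the particle libraries, 3479, 3777 and 3202 CPM in the inflamed libraries and 2571, 3484 and 2927 CPM in the control libraries. All 3 groups overlapped. The log2 fold change was 0.22 for inflamed against control islets (-0.37 to 0.81, edgeR adjusted p = 0.539), -0.34 for particle against inflamed islets (-0.93 to 0.25, adjusted p = 0.600) and -0.12 for particle against control islets (-0.71 to 0.47, adjusted p = 0.795). The last of these was 0.16 with library totals in place of TMM factors. The intervals are wide enough that these values do not show Cpe to be level.

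**Figure D2:**
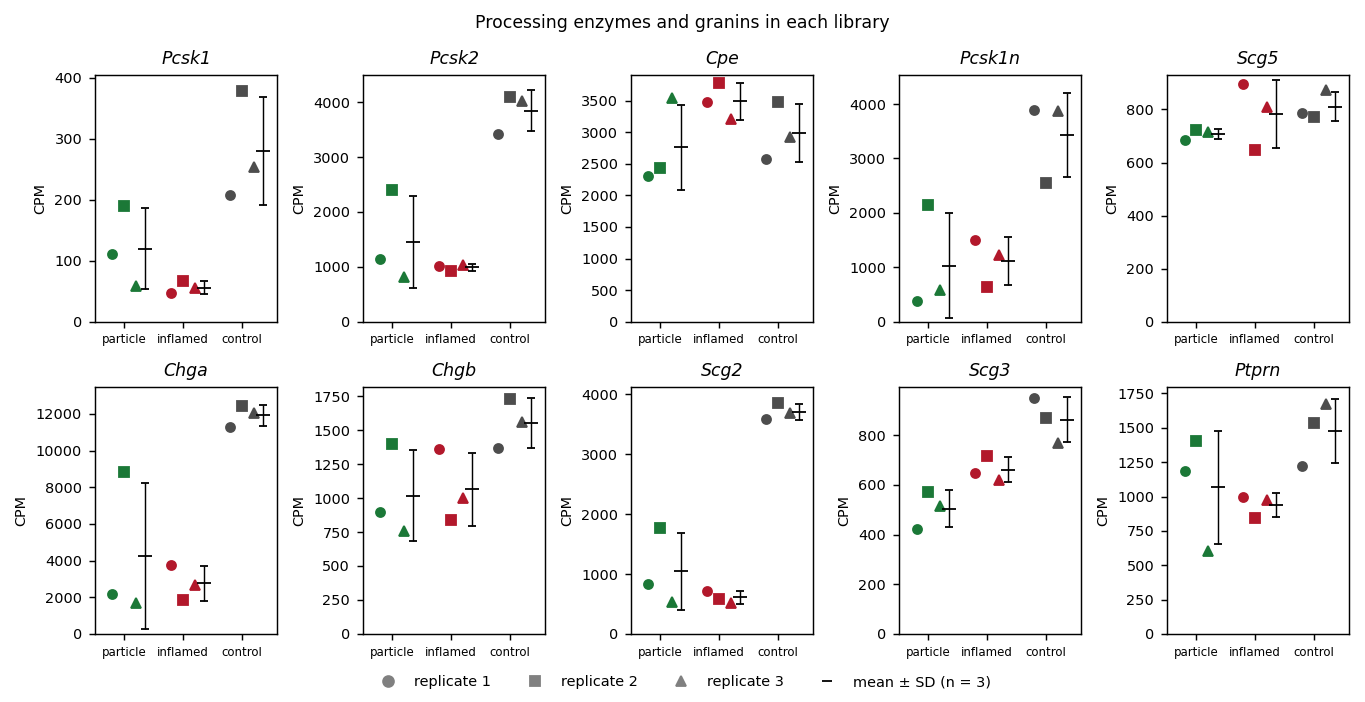
Level of each of the 10 genes in CPM (vertical axis, from 0) in the particle, inflamed and control libraries, with a symbol for each replicate and the mean ± SD of 3 libraries beside it. Scg2, Pcsk2 and Chga show the inflamed libraries far below the controls and particle replicate 2 above the rest of its group, while the groups of Cpe overlap.

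Pcsk1n encodes proSAAS, a precursor whose fragments inhibit the convertase encoded by Pcsk1 (ENSMUSG00000039278, GRCm39 chrX:7786061-7790649, plus strand). It was at 372, 2137 and 576 CPM in the particle libraries, 1496, 642 and 1220.3 CPM in the inflamed libraries and 3896, 2545 and 3872 CPM in the control libraries. Every control library was above every other library, and the particle libraries were the most scattered, with replicate 2 the highest and replicate 1 the lowest of the 6 treated ones. Pcsk1n averaged 1119 ± 436 CPM in inflamed and 3438 ± 773 CPM in control islets (log2 fold change -1.62, -2.90 to -0.34, edgeR adjusted p = 0.0456). It was no longer called when 1 of the 6 control and inflamed libraries was left out (adjusted p = 0.0564 to 0.130), without a filter on low counts (0.157) and with the replicate number as a block (0.0785). Particle islets, at 1029 ± 966 CPM, were not called against control (log2 fold change -1.74, -3.02 to -0.46, adjusted p = 0.0610). Without particle replicate 2 that comparison was called, at a log2 fold change of -2.90 and an edgeR adjusted p of 8.45e-04. It was also called with library totals (adjusted p = 0.0497), DESeq2 (0.0423), limma-voom (0.0245) and limma-trend on log2 FPKM with a pseudocount of 1 (0.0303) or 0.1 (0.0324). The log2 fold change for particle against inflamed islets was -0.12 (-1.37 to 1.12, adjusted p = 0.947) and ran from -1.24 (without particle replicate 2) to 0.28 (without particle replicate 1) as single libraries were left out.

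Scg5 encodes 7B2, which escorts the precursor of the convertase encoded by Pcsk2 to the granule and also inhibits it (ENSMUSG00000023236, GRCm39 chr2:113606707-113659466, minus strand). The values were 687, 724 and 714 CPM in the particle libraries, 897, 646 and 808 CPM in the inflamed libraries and 789, 771 and 874 CPM in the control libraries. They spanned a narrow range in all 9 libraries, and the particle libraries lay just below the controls. The log2 fold change was -0.05 for inflamed against control (-0.51 to 0.41, edgeR adjusted p = 0.867) and -0.20 for particle against control islets (-0.66 to 0.27, adjusted p = 0.555), and with library totals in place of TMM factors both were above 0, at 0.12 and 0.08. For particle against inflamed islets it was -0.15 (-0.61 to 0.32, adjusted p = 0.798). Of the regulators, Pcsk1n was called lower in inflamed islets and Scg5 was not, and the difference between their fold changes was not itself tested.

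Chga, chromogranin A, is the granin most used as a marker of endocrine cells and the source of peptides such as pancreastatin (ENSMUSG00000021194, GRCm39 chr12:102521228-102531287, plus strand). It was at 2199, 8824 and 1671 CPM in the particle libraries, 3767, 1854 and 2665 CPM in the inflamed libraries and 11284, 12416 and 12063 CPM in the control libraries. The control libraries were tightly grouped and above all others, and particle replicate 2 was far above the other particle libraries. Inflamed islets averaged 2762 ± 960.3 CPM and control islets 11921 ± 579 CPM, 4.32-fold lower (log2 fold change -2.11, -3.36 to -0.85, edgeR adjusted p = 0.0135), and the call held in all 20 alternatives. Particle islets, at 4232 ± 3986 CPM, were not called against control (log2 fold change -1.49, -2.73 to -0.26, adjusted p = 0.0879). Without particle replicate 2 the log2 fold change was -2.66 with an edgeR adjusted p of 7.73e-04. Chga was also called against control with limma-voom (adjusted p = 0.0301) and limma-trend on log2(FPKM + 1) (0.0484). Against inflamed islets it was 0.62 (-0.59 to 1.83, adjusted p = 0.646), and -0.51 without particle replicate 2.

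Scg2, secretogranin II, the precursor of secretoneurin (ENSMUSG00000050711, GRCm39 chr1:79412386-79417837, minus strand), had the lowest fold change of the 10 genes in inflamed islets. It was at 840.5, 1761 and 531 CPM in the particle libraries, 724, 586 and 522 CPM in the inflamed libraries and 3584, 3849 and 3691 CPM in the control libraries. No treated library came near the controls, and the inflamed range was narrow. The mean of 611 ± 103 CPM in inflamed islets was 6.07-fold lower than the 3708 ± 133 CPM of control islets (log2 fold change -2.60, -3.48 to -1.72, edgeR adjusted p = 7.84e-04). Particle islets at 1044 ± 639.9 CPM were lower than controls as well (log2 fold change -1.83, -2.69 to -0.97, adjusted p = 0.0111). Both calls of Scg2 held in all 20 alternatives, and Scg2 was the only member of which this was true in both comparisons. Without particle replicate 2 the log2 fold change against control was -2.47. Against inflamed islets the value in particle islets was 0.77 (-0.06 to 1.61, edgeR adjusted p = 0.377) and 0.17 without particle replicate 2.

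Chgb, chromogranin B, another core granin (ENSMUSG00000027350, GRCm39 chr2:132623198-132636999, plus strand), was at 899, 1398 and 755 CPM in the particle libraries. It was at 1359, 836 and 996 CPM in the inflamed libraries and 1366, 1731 and 1556 CPM in the control libraries. The inflamed range ended just below the lowest control, and particle replicate 2 was within the control range. Chgb was not called in inflamed against control islets (log2 fold change -0.54, -1.19 to 0.10, edgeR adjusted p = 0.159) nor in particle against control islets (-0.61, -1.25 to 0.03, adjusted p = 0.171). Without particle replicate 2, particle against control was called at -0.95 with an adjusted p of 0.0359. For particle against inflamed islets the log2 fold change was -0.06 (-0.71 to 0.58, adjusted p = 0.945), and -0.36 without particle replicate 2.

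Scg3, secretogranin III, which binds chromogranin A and tethers it to the granule membrane (ENSMUSG00000032181, GRCm39 chr9:75550471-75591338, minus strand), was the member whose 3 groups lay apart from each other. The particle libraries held 424, 573 and 517 CPM, the inflamed libraries 648, 717 and 619 CPM, and the control libraries 949.6, 867 and 769 CPM. Particle islets were lowest and control islets highest. Scg3 was called lower in particle against control islets, at 505 ± 75.5 CPM and 862 ± 90.6 CPM (log2 fold change -0.77, -1.24 to -0.30, edgeR adjusted p = 0.0324). Its adjusted p was over the threshold when 1 of the 3 control libraries was left out (0.0592 to 0.0774), inflamed replicate 1 (0.0556), particle replicate 1 (0.117) or particle replicate 3 (0.0812). The call was also lost with library totals in place of TMM factors (0.120) and with only the compared libraries (0.0654). Inflamed islets, at 661 ± 50.4 CPM, gave -0.38 against control (-0.85 to 0.09, adjusted p = 0.174), and particle against inflamed islets gave -0.39 (-0.86 to 0.08, adjusted p = 0.426). DESeq2 called Scg3 in inflamed against control islets (adjusted p = 0.0426). Scg3 was the only 1 of the 10 genes without overlap between particle and inflamed libraries, in a comparison where 6.82% of all genes lay wholly lower and 8.87% wholly higher.

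Ptprn encodes IA-2, a phosphatase-like protein that spans the granule membrane and is an autoantigen of type 1 diabetes in humans (ENSMUSG00000026204, GRCm39 chr1:75223671-75241146, minus strand). It was at 1188, 1406 and 605 CPM in the particle libraries, 998, 841 and 978 CPM in the inflamed libraries and 1223, 1537 and 1676 CPM in the control libraries. All inflamed libraries were below all controls, and the particle libraries spread from below the inflamed range into the control range. In inflamed against control islets the log2 fold change was -0.66 (-1.33 to 0.02, edgeR adjusted p = 0.111). Ptprn passed the threshold with DESeq2 (adjusted p = 0.0398), with only the 6 compared libraries in the fit (0.0329) and without particle replicate 3 (0.0413). It was not called in particle against inflamed islets (0.18, -0.49 to 0.86, adjusted p = 0.829) nor in particle against control islets (-0.47, -1.15 to 0.20, adjusted p = 0.311). Leaving out particle replicate 2 gave -0.062 for particle against inflamed and -0.76 for particle against control, neither called.

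The share of each gene in the 10 transcripts was set side by side, as a description with no test. Chga held 22.5, 41.8 and 16.8% of their summed FPKM in the particle libraries, 25.6, 17.0 and 21.8% in the inflamed libraries and 39.4, 41.3 and 39.5% in the control libraries. Particle replicate 2 lay above the 3 controls and the other 5 treated libraries lay below them. Cpe held 24.9, 12.2 and 37.5% in the particle libraries, 24.9, 36.6 and 27.7% in the inflamed libraries and 9.49, 12.2 and 10.1% in the control libraries. Scg5 held 10.3 ± 3.72% in particle, 10.9 ± 0.623% in inflamed and 4.79 ± 0.268% in control islets (SD, n = 3), and Scg2 held 8.14 ± 1.99% in particle, 5.32 ± 0.611% in inflamed and 13.7 ± 0.393% in control islets. These shares sum to the whole in each library, so a lower share of one gene raises the others.

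**Figure D3:**
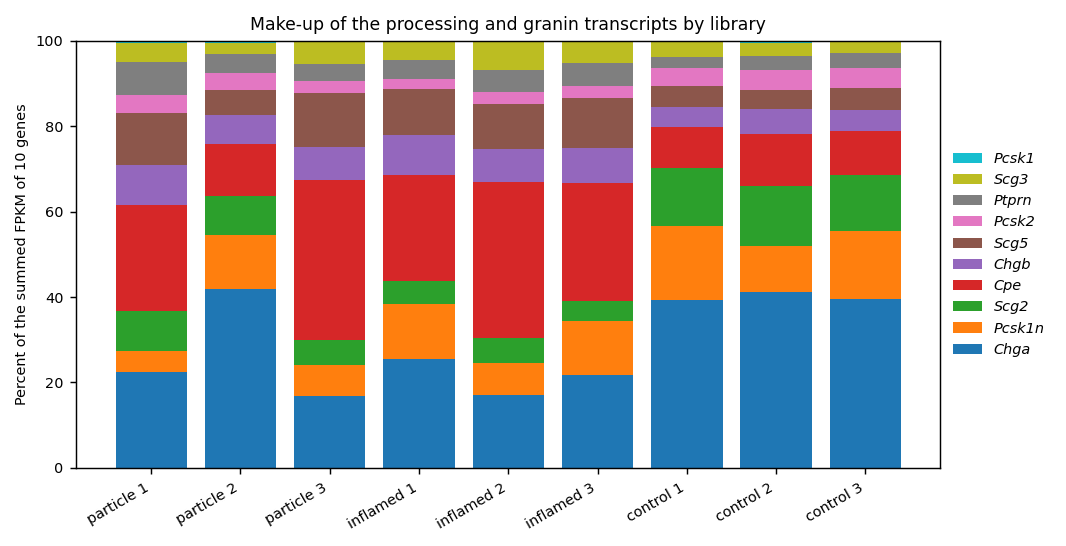
Share of each gene in the summed FPKM of the 10 genes (vertical axis, percent) in each of the 9 libraries. Chga is the largest part of the 3 control libraries and particle replicate 2 (39.4 to 41.8%) and of inflamed replicate 1 (25.6%), and Cpe is the largest part of the other particle libraries and of inflamed replicates 2 and 3 (24.9 to 37.5%).

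Ratios between genes of 1 library do not depend on how libraries are scaled, and they were taken per transcript length. There were 30 such comparisons (10 ratios in 3 comparisons), each by an exact two-sided permutation test, for which 0.1 is the smallest p that 3 against 3 libraries allow. No ratio can therefore pass a threshold of 0.05, and the adjusted p of those at 0.1 was 0.333. The transcript of the carboxypeptidase stood higher relative to that of the convertase: Cpe was 44.5, 27.4 and 131 times Pcsk1 in the particle libraries, 161, 121 and 126 times in the inflamed libraries and 26.7, 19.8 and 24.8 times in the control libraries. All treated libraries were above all controls, with a log2 difference of 2.52 for inflamed against control islets (exact permutation p = 0.1, n = 3 each) and 1.20 for particle against control islets (exact p = 0.1). The value of 1.20 was 0.57 without particle replicate 3 and 1.70 without particle replicate 2. Scg5, the chaperone, was 3.04, 1.52 and 4.38 times Pcsk2, its client, in the particle libraries, 4.43, 3.56 and 3.92 times in the inflamed libraries and 1.16, 0.947 and 1.10 times in the control libraries. Again no treated library overlapped with the controls, at log2 differences of 1.89 for inflamed and 1.36 for particle islets against control (exact p = 0.1 each). The ratio of Pcsk1n to Pcsk1, inhibitor to enzyme, overlapped in every comparison, at 8.55, 28.7 and 25.3 in particle, 82.5, 24.5 and 57.2 in inflamed and 48.1, 17.2 and 39.0 in control libraries.

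Between granins, Chga was 2.43, 6.28 and 2.20 times Chgb per length in the particle libraries, 2.76, 2.20 and 2.66 times in the inflamed libraries and 8.21, 7.13 and 7.71 times in the control libraries. Both treated groups lay below the controls, at log2 differences of -1.60 for inflamed and -1.25 for particle islets against control (exact permutation p = 0.1 each), and the value of -1.25 was -1.73 without particle replicate 2. Set against the summed insulin transcripts Ins1 and Ins2, Cpe stood higher in inflamed than in control islets by 1.18 on the log2 scale, and Pcsk1 and Pcsk2 stood lower by differences of -1.34 and -1.0, all without overlap (exact p = 0.1 each). In particle against control islets the differences were 1.17 for Cpe (exact p = 0.2), -0.04 for Pcsk1 (exact p = 1) and -0.25 for Pcsk2 (exact p = 0.8), and as single libraries were left out they ran from 0.86 to 1.62, -0.49 to 0.44 and -0.57 to 0.13. The sum of the 10 genes relative to insulin overlapped between inflamed and control islets, at a log2 difference of -0.30 (exact p = 0.4), or -0.48 to -0.09 as single libraries were left out. None of the 10 ratios was free of overlap between particle and inflamed islets. The largest log2 differences there were -1.41 for Pcsk1n to Pcsk1 (exact p = 0.3), -1.32 for Cpe to Pcsk1 (exact p = 0.3) and 1.30 for Pcsk1 to insulin (exact p = 0.2). As single libraries were left out they ran from -1.90 to -0.85 (without particle replicate 1), from -1.95 to -0.82 (without particle replicate 2) and from 0.85 (without particle replicate 1) to 1.79.

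**Figure D4:**
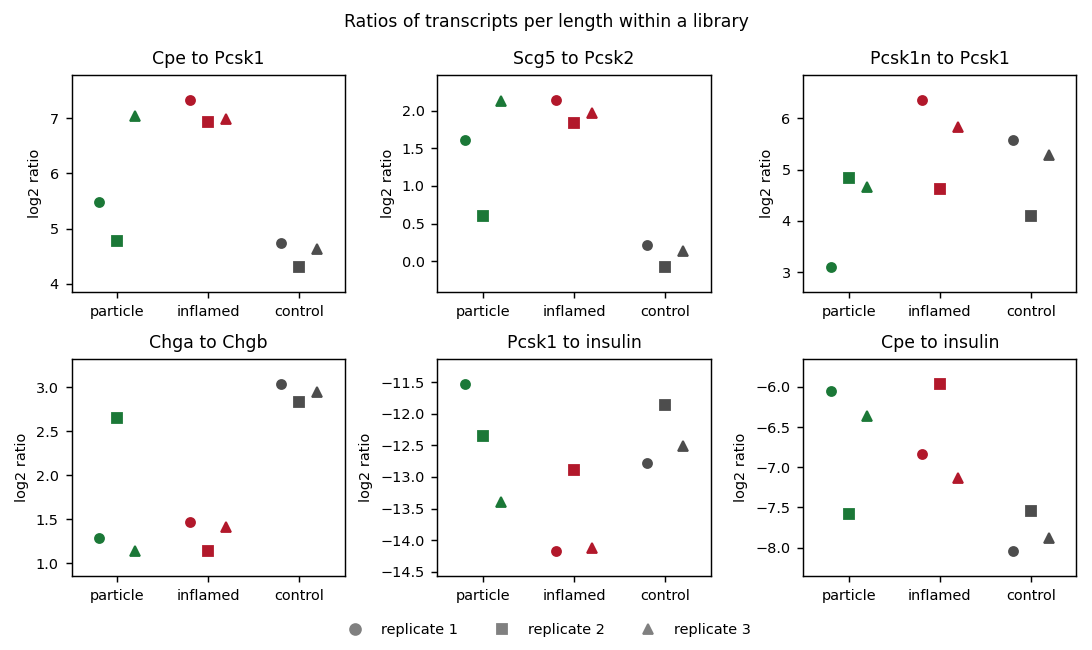
Ratios of transcripts per length on a log2 axis in the particle, inflamed and control libraries, 1 symbol for each replicate. Cpe to Pcsk1 and Scg5 to Pcsk2 are higher, and Chga to Chgb lower, in all 6 treated libraries than in the 3 controls, while Pcsk1n to Pcsk1 overlaps.

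Likeness of profiles was measured as the root mean square difference between log2 CPM over the 9 libraries, each gene centred on its own mean, so that 0 is an identical course. Among the 10 genes, Pcsk2 and Scg2 were nearest to each other at 0.31, Chgb and Ptprn at 0.23, and Cpe and Scg5 at 0.28. Pcsk1 and Chga were each nearest to Pcsk2, at 0.34 and 0.35, Pcsk1n was nearest to Chga at 0.44 and Scg3 to Scg5 at 0.32. Among the 10396 protein-coding genes that averaged 5 CPM or more, many lay nearer than a fellow member did. Nearest were Zcchc18 for Pcsk1 (0.17), Ltbp3 for Scg2 (0.11), P3h3 for Chga (0.17) and Nab2 for Pcsk1n (0.30). For the genes with flatter courses they were Dnajc25 for Cpe (0.08), Gmds for Scg5 (0.10), Shmt2 for Chgb (0.13), Wwox for Scg3 (0.12) and Limk1 for Ptprn (0.11). These are descriptions over 9 libraries that share their 3 groups.

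Of 23 tested genes for other proprotein convertases and peptide-processing enzymes, 3 rose and 8 fell in inflamed against control islets, with a median log2 fold change of -0.35. That is 13% higher and 34.8% lower, beside 20.7% and 19% of all genes. Those with the smallest adjusted p went both ways. Pcsk4, a convertase best known from germ cells, was at 22.0 ± 3.73 CPM in inflamed and 181 ± 13.4 CPM in control islets (log2 fold change -3.05, edgeR adjusted p = 2.60e-04). Ctsb, the lysosomal protease cathepsin B, was higher at 3055 ± 249 CPM in inflamed and 511 ± 20.2 CPM in control islets (2.58, adjusted p = 1.40e-04), and so was Erap1, which trims peptides for class I presentation, at 154 ± 3.95 and 28.1 ± 2.14 CPM (2.45, adjusted p = 9.75e-05). Pam, the amidating enzyme, chosen after its values were seen, was lower at 136 ± 13.9 and 291 ± 67.9 CPM (-1.09, adjusted p = 0.00677). In particle against control islets 2 rose and 8 fell, the 8 becoming 3 without control replicate 2 or 3, 5 with library totals, 4 without particle replicate 1 or 3 and 10 without particle replicate 2. With all libraries that is 8.7% higher and 34.8% lower, beside 11.4% and 5.92% of all genes. In particle against inflamed islets edgeR called 0, with 3 higher and 2 lower at an unadjusted p under 0.05 and 2 and 2 by DESeq2, and 2 higher and 1 lower without particle replicate 3. Of all genes 15.1% had such an unadjusted p, and DESeq2 called 2.82% higher and 1.72% lower.

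Of 35 other genes of the granule matrix, its membrane and its formation, 2 rose and 10 fell in inflamed against control islets (median log2 fold change -0.21), or 5.71% and 28.6%. The 10 became 6 without control replicate 3 or inflamed replicate 2 and with library totals in place of TMM factors. The 2 became 0 without control replicate 1, 1 without control replicate 2 or 3, and 4 with library totals. Slc30a8, the zinc transporter of the insulin granule, was at 45.6 ± 3.75 CPM in inflamed and 441 ± 47.4 CPM in control islets (log2 fold change -3.27, edgeR adjusted p = 2.51e-04). Sort1, a sorting receptor of the Golgi, was at 51.2 ± 8.98 and 176 ± 21.3 CPM (-1.78, adjusted p = 0.00123), Cltrn, a granule exocytosis protein of beta cells, at 74.0 ± 3.45 and 375 ± 96.5 CPM (-2.34, adjusted p = 0.00332) and Hid1, needed for granule maturation, at 135 ± 15.3 and 344 ± 52.2 CPM (-1.35, adjusted p = 0.00257). Ptprn2, the close relative of Ptprn, chosen after its values were seen, was lower at 223 ± 125 and 666 ± 90.2 CPM (-1.58, adjusted p = 0.0151). In particle against control islets 2 rose and 5 fell, or 5.71% and 14.3%, beside 11.4% and 5.92% of all genes. The 5 became 1 without particle replicate 3 or control replicate 2 or 3, 3 without inflamed replicate 1 or particle replicate 1, and 8 without particle replicate 2 or with DESeq2. The 2 became 0 without any 1 control library, inflamed replicate 1 or particle replicate 1, and 1 without inflamed replicate 3, particle replicate 2 or particle replicate 3, and with 6 of the other alternatives. In particle against inflamed islets edgeR called 0, with 2 higher and 1 lower at an unadjusted p under 0.05 and 1 higher by DESeq2, and 2 higher without particle replicate 3. Of all genes 15.1% had such an unadjusted p, and DESeq2 called 2.82% higher and 1.72% lower.

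Of 25 tested prohormone and propeptide genes 3 rose and 5 fell in inflamed against control islets (median log2 fold change -0.64). These are 12% and 20%, so the share lower was close to the 19% of all genes and the share higher was below their 20.7%. The 5 became 3 without control replicate 2 or 3 or inflamed replicate 1 or 2, without a filter on low counts or with the replicate block, 8 without particle replicate 2 or with only the compared libraries, and 9 with limma-voom, and the 3 became 1 without control replicate 1 or 3 or inflamed replicate 3. Iapp, the amyloid peptide co-secreted with insulin, was at 7749 ± 549 CPM in inflamed and 25465 ± 477 CPM in control islets (log2 fold change -1.72, edgeR adjusted p = 0.00291). Ucn3, a peptide of mature beta cells, was at 9.39 ± 1.55 and 626 ± 103 CPM (-6.06, adjusted p = 0.00419) and Gnas, whose locus also encodes a granin-like protein, at 89.0 ± 30.7 and 201 ± 45.8 CPM (-1.18, adjusted p = 0.0103). Adm, the precursor of adrenomedullin, was higher at 9.48 ± 2.70 and 0.926 ± 0.558 CPM (3.34, adjusted p = 5.22e-04). Ins1 was at 23362 ± 10797 CPM in inflamed and 81271 ± 2913 CPM in control islets (-1.80, adjusted p = 0.0491, rising to between 0.0626 and 0.135 when a control library, an inflamed library or particle replicate 3 was dropped, without a count filter or with the block, and to 0.312 and 0.427 with limma-trend) and Ins2 at 152994 ± 44513 and 238673 ± 6595 CPM (-0.64, adjusted p = 0.245). The insulin genes are near-identical paralogs, so reads may have been split between them. In particle against control islets 1 rose and 1 fell, or 4% each, beside 11.4% higher and 5.92% lower of all genes. The 1 that fell became 0 without control replicate 2 or 3 or particle replicate 1 or 3, 2 without inflamed replicate 2 and 10 without particle replicate 2. It was 6 with limma-voom and with limma-trend on log2(FPKM + 1), 4 on log2(FPKM + 0.1), 3 with DESeq2 and 2 with RLE factors, other count filters or only the compared libraries, and the 1 that rose became 2 without particle replicate 1. In particle against inflamed islets edgeR called 0, with 1 higher at an unadjusted p under 0.05 and 1 higher by DESeq2 and without particle replicate 3. Of all genes 15.1% had such an unadjusted p, and DESeq2 called 2.82% higher and 1.72% lower.

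Of 32 tested transcription factors of endocrine and neuroendocrine genes, 4 rose and 18 fell in inflamed against control islets, with a median log2 fold change of -1.58. These are 12.5% and 56.2%. All 4 with the smallest adjusted p are known from islet development and were lower. Myt1 was at 8.02 ± 1.94 CPM in inflamed and 33.4 ± 3.42 CPM in control islets (log2 fold change -2.06, edgeR adjusted p = 1.23e-04), Isl1 at 22.4 ± 1.76 and 94.1 ± 16.6 CPM (-2.07, adjusted p = 2.11e-04), Neurod1 at 33.3 ± 4.02 and 127 ± 28.7 CPM (-1.93, adjusted p = 2.61e-04) and Rfx6 at 14.4 ± 4.99 and 75.0 ± 8.18 CPM (-2.38, adjusted p = 3.16e-04). Some further genes were chosen after their values were seen. Pax6, which controls islet hormone and convertase genes in the mouse, was lower at 51.4 ± 19.8 and 286 ± 40.7 CPM (-2.47, adjusted p = 5.46e-04). Rest, a repressor of neuronal genes that also silences several granule genes, was higher at 4.40 ± 0.307 and 0.560 ± 0.250 CPM (2.97, adjusted p = 0.00166), and so was Crem, a factor that binds the cAMP response element, at 55.4 ± 8.35 and 18.4 ± 5.41 CPM (1.59, adjusted p = 7.61e-04). In particle against control islets 2 rose and 15 fell, or 6.25% and 46.9%, beside 11.4% and 5.92% of all genes. The 15 became 7 to 9 without any 1 control library, particle replicate 1 or particle replicate 3, and the 2 became 1 without these or inflamed replicate 1 and with 6 of the other alternatives. In particle against inflamed islets edgeR called 0, with 15 higher and 3 lower at an unadjusted p under 0.05, 5 and 2 by DESeq2, and 8 higher without particle replicate 3. Of all genes 15.1% had such an unadjusted p, and DESeq2 called 2.82% higher and 1.72% lower. Without particle replicate 3 edgeR called 636 of all genes higher and 306 lower.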

How the data were processed

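RNA from 9 islet libraries in 3 groups was analysed, and the titles in the labels gave the group and replicate number. The authors deposited whole-number counts per gene, not normalized, and a table of FPKM values for the same genes. Each deposited FPKM value equals count over gene length and 1 constant per library, which was 0.86 to 1.19 times the library total. The gene length in bases is the deposited one. HTSeq, DESeq2 and GRCm39 (mm39) are named, per the submitters' processing notes, and their versions and the strand setting are not stated in the labels. The 3 columns of untreated islets carry no group word and were assigned once the other 6 had been matched by name.

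The test on counts was that of edgeR 4.0.16 (R 4.3.3): filterByExpr with a minimum count of 10 (17276 genes left), TMM factors and robust quasi-likelihood models of all 9 libraries. Benjamini-Hochberg adjustment ran over all tested genes of a comparison, and calls were made at an adjusted p under 0.05. Intervals are at 95%, with the standard error taken as the log2 fold change over the square root of F. Alternatives were RLE factors, library totals, scaling that ignored the top 20 genes by count and those of the mitochondrial genome, no filter, at least 1 CPM in 3 libraries, DESeq2 1.42.0, limma-voom (limma 3.58.1), limma-trend on log2 FPKM values with a pseudocount of 1 or 0.1, only the compared libraries, a replicate block, and leaving out each library. Ratios were tested by exact permutation (scipy 1.17.1), and alternatives for them were FPKM ratios and leaving out each library. Replicates differed far beyond sampling noise (chi-square per degree of freedom 42.5 to 197), so all were kept.

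The members, gene lists and tests were chosen with earlier results of these data known. Genes named beyond the members are the 4 genes per list that had the lowest adjusted p for inflamed against control, Ins1, Ins2 and the nearest profiles, and others are marked where they appear. A few items that this rule or a marker list would name are not reported here. Markers of duct, acinar, stellate, endothelial, lymphocyte, neural and mast cells, and of delta, PP and epsilon cells as 1 list, were also summed. Between inflamed and control islets 4 of 8 tested duct markers were higher, beside 20.7% of all genes. Of the tested markers 6 of 11 endothelial, 3 of 7 delta, PP and epsilon, 2 of 10 stellate and 3 of 9 neural markers were lower, beside 19% of all genes. The 20% of stellate markers was close to the share of all genes, as was the 20% in each direction of the lymphocyte list. The 6 endothelial became 1 to 3 without control replicate 1 or 2 or inflamed replicate 1 or 2, and the 2 stellate 1 without control or inflamed replicate 2 and 5 without particle replicate 2. The 3 delta, PP and epsilon markers became 5 or 6 without a particle library, and 6 with limma-voom, limma-trend or only the compared libraries. They became 2 without a count filter, control replicate 3 or inflamed replicate 2 or 3. In the lymphocyte list 1 of 5 was higher and 1 lower, and 0 of 12 acinar markers and 0 of 1 mast cell marker were called by edgeR, with 0 at an unadjusted p under 0.05 and 0 by DESeq2. Promoters are from RefSeq (GRCm38.p6), and protein sequences were not used here.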

Additional observations from a re-analysis of the deposited data

How the results depend on the processing

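For inflamed against control islets the calls of Pcsk1, Pcsk2, Chga and Scg2 held in all 20 alternatives, and for particle against control islets that of Scg2 did. Of 720 recomputed fold changes of the 10 genes and the insulin genes, 639 kept direction and side of the threshold, 43 lost a call, 19 gained one and 19 turned sign; of 210 recomputed ratios, 202 kept their sign and 8 turned, and of 240 counts 39 moved by over 1.5 times. None of the fold changes that turned was called, and the cause of the changes was not tested.

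With library totals in place of TMM factors the log2 fold change of Scg5 was 0.12 for inflamed and 0.077 for particle islets against control, that of Cpe was 0.16 for particle against control and that of Chgb 0.016 for particle against inflamed islets. Ins1 for particle against inflamed islets was -0.10 with limma-voom and -0.11 with limma-trend on log2 FPKM values with a pseudocount of 1 or 0.1. Leaving out each library in turn gave Scg5 -0.17 to 0.066 for inflamed against control. For particle against inflamed it gave Pcsk1n -1.24 to 0.28, Chgb -0.36 to 0.16, Pcsk2 -0.015 to 0.84, Chga -0.51 to 1.0, Ptprn -0.062 to 0.47 and Ins1 -0.82 to 0.72. The negative ends of Pcsk2, Chga and Ptprn came without particle replicate 2. Log2 ratios that turned were, for particle against inflamed, Chga to Chgb (-0.13 to 0.63) and Cpe to insulin (-0.32 to 0.44), and for particle against control Scg2 to Chga (-0.30 to 0.16), Pcsk1 to insulin (-0.49 to 0.44), Pcsk2 to insulin (-0.57 to 0.13) and the sum of the 10 genes to insulin (-0.16 to 0.29).

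Over all genes, particle against inflamed gave 0 calls in either direction with edgeR. It gave 1 higher with library totals, 120 higher and 101 lower without a count filter, 487 and 296 with DESeq2, 1 and 7 with limma-voom, 10 lower with log2(FPKM + 1), and 5 and 6 with log2(FPKM + 0.1). Leaving out each library gave 0 to 636 higher and 0 to 306 lower, with both upper ends and 1 of the 10 genes (0 to 1) without particle replicate 3. Particle against control gave 1961 higher and 1022 lower genes. With library totals it gave 3193 and 597, so that 84.2% of calls were higher in place of 65.7%. The lower genes numbered 1940 with DESeq2, 2022 with log2(FPKM + 1) and 1622 with log2(FPKM + 0.1), and leaving out each library gave 887 to 2424 higher and 224 to 2121 lower. The count of the 10 genes lower than in control islets was 4, and 1 with only the compared libraries and 1 to 7 as each library was left out. For inflamed against control, leaving out each library gave 2278 to 3786 higher genes, against 3568 with all libraries.

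No clear pairing by replicate number was seen: deviations of same-numbered libraries correlated at -0.18 to 0.21, with 1 of 9 pairs over 0.1. The best partner had the same number in 4 of 18 combinations. Deviations from the mean of 3 libraries cannot exclude that same-numbered libraries shared mice or an islet batch, which the labels do not state. With the replicate number as a block, 4 of the 10 genes were lower in inflamed and 4 in particle islets against control, and Pcsk1n was the only one of the 10 genes to lose a call (adjusted p = 0.0785). With 3 libraries a group, ratios cannot reach a p under 0.1.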
